A study of Mus musculus with 26 samples.

Results

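Interferon-stimulated genes were followed in TCR_Tg101_, CD8+ T cells whose transgenic receptor recognizes the murine leukemia C1498. The set held 44 genes chosen by name, of 35944 genes with matched transcripts. By role it comprised 21 antiviral effectors, 4 RNA sensors, 8 transcription factors and signal regulators, and 11 interferon-inducible GTPases. All 44 had at least 10 estimated counts in at least 6 libraries and were therefore tested.

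RNA was sequenced from TCR_Tg101_ sorted from spleens and livers, and 14 low-input libraries were used. Mice were C57BL/6, 6 weeks old and of wild type genotype according to the labels. The control group held 3 spleen libraries, of which 2 were from naive cells at day 0 and 1 was from cells recovered from a leukemia-free mouse at day 18. From leukemia-bearing mice there were 2 early liver libraries (day 7), 3 mid liver libraries (days 13, 13 and 14), 2 late liver libraries (days 18 and 16), 2 early spleen libraries (day 7), 1 mid spleen library (day 14) and 1 spleen library of undivided cells (day 18), sorted for high CellTrace Violet, a dye diluted by division. Numbers given for a group follow this order throughout. The donors of TCR_Tg101_ carry a rearranged receptor on a Rag2-/- background, so these cells model 1 T cell specificity. The paper counts days from the adoptive transfer of TCR_Tg101_ into recipient mice. Every control library was from spleen, and 2 of the 3 were from naive cells at day 0. In comparisons of liver with control the effects of tissue, leukemia and time since transfer cannot be told apart. The labels do not say that the libraries came from separate animals, so the spread between them may be partly technical.

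T cells respond to type I interferons and to interferon-γ. Type I interferons signal through the receptor chains Ifnar1 and Ifnar2 and the kinases Jak1 and Tyk2 to a complex with Stat2 and Irf9, which binds a promoter element known as the ISRE. Interferon-γ, which CD8+ T cells themselves secrete, signals through Ifngr1 and Ifngr2 with Jak1 and Jak2 to factors that bind the GAS element. The genes switched on block viral replication, sense viral RNA, attack pathogen-containing vacuoles and feed back on the pathway.

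The ISRE letters printed below are from members chosen because their promoters held a match, so the match is shared by selection. RefSeq promoters (GRCm38.p6, from 250 bases before to 50 bases after the start) were on hand for 33 of the 44 genes. The core GAAANNGAAA, sought on both strands, was present in 20 of these 33 (60.6%) and in 3.99% of all 27025 genes with a promoter entry. The GAS core TTCNNNGAA was present in 11 of 33 (33.3%) and in 9.55% of all genes. Windows are printed 5′ to 3′ in the direction of the gene, with matches to the ISRE core in capitals (a match on the opposite strand shows its reverse complement). The first 6 genes were lower in late liver than in control and the last 5 did not pass the threshold.
Ifit1 (chr19:34640773-34640825, plus strand): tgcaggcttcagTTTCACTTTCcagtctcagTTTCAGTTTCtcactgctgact
Ifit3 (chr19:34583361-34583428, plus strand): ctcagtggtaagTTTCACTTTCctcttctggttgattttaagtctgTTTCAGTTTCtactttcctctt
Ifit3b (chr19:34607757-34607824, plus strand): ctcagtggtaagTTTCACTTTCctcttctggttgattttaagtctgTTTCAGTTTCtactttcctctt
Tgtp2 (chr11:49064261-49064294, minus strand): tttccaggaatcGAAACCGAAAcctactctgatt
Irgm1 (chr11:48871423-48871462, minus strand): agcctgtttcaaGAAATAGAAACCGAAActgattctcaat
Gbp2 (chr3:142620592-142620625, plus strand): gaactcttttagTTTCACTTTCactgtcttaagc
Isg15 (chr4:156200863-156200908, minus strand): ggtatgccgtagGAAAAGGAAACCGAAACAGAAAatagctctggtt
Oas1a (chr5:120907526-120907557, minus strand): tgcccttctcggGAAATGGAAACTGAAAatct
Oas3 (chr5:120777713-120777746, minus strand): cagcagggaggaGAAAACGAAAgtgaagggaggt
Igtp (chr11:58199510-58199543, plus strand): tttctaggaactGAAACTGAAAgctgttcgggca
Bst2 (chr8:71537575-71537614, minus strand): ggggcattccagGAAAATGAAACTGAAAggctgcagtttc

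The windows of Ifit3 and Ifit3b held the same letters. Of the genes lower in late liver that had a promoter entry, 9 of 17 held the ISRE core, against 11 of 16 of those not past the threshold. For the GAS core the counts were 3 of 17 and 8 of 16. A match describes letters and not binding.

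Library totals ranged from 22918996 to 71358287 estimated counts (median 34349318), and the number of libraries, not counting error, limited precision for most members. The 8 T cell markers summed to between 3939 and 9172 CPM (counts scaled to the size of the library) in the 14 libraries, each marker above 0 in every library. Other cell types contributed unevenly, and the macrophage, dendritic cell and erythroid markers were highest in controls. The 12 macrophage, Kupffer cell and monocyte markers summed to 1205, 175.3 and 14.0 CPM in the 3 controls, with 1, 0 and 2 of the 12 at 0, and to between 5.93 and 79.6 CPM in the other 11 libraries. The 7 dendritic cell markers summed to 73.9, 59.7 and 22.9 CPM in controls and to between 18.1 and 38.8 CPM outside the controls. Erythroid markers reached 10078 CPM in a day 0 control and were between 0.839 and 103.9 CPM outside the controls. The 8 hepatocyte markers summed to 318.6, 22.1 and 1.07 CPM in controls, 239.5, 23.5 and 3.51 CPM in mid liver, and 402.7 and 99.0 CPM in late liver. Titles place control 1, mid liver 1 and late liver 1 in the TG series and the rest in the XC series, which was taken as the sequencing batch and entered each model.

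Most of these genes were expressed at lower levels in mid and late liver libraries than in control libraries. Of the 44, 23 were lower in late liver than in control by edgeR's quasi-likelihood test (adjusted p under 0.05) and 0 were higher, where 17.7% of all 14616 tested genes were called lower and 19.8% higher. In mid liver 10 were lower and 0 higher, with 13.9% of all tested genes called lower and 17.3% higher. By DESeq2 30 were lower and 0 higher in late liver, where 19.6% of all tested genes were lower and 3359 of 14616 higher. In mid liver 18 were lower and 0 higher by DESeq2, with 16.4% of all tested genes lower and 3055 of 14616 higher. By unadjusted edgeR p 31 were lower and 1 higher in late liver, and 22 lower and 0 higher in mid liver. The share of all genes at that level is not given here. The median log2 fold change of the 44 was -1.07 in late liver and -0.79 in mid liver, against -0.03 and -0.06 for all tested genes. In late liver 29 of the 44 had both libraries below every control library (27.7% of all tested genes did), and in mid liver 18 had all 3 libraries below every control (20.9% of all tested genes). In bulk RNA, fewer cells that express a gene and less of its RNA per cell cannot be told apart.

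**Figure D1:**
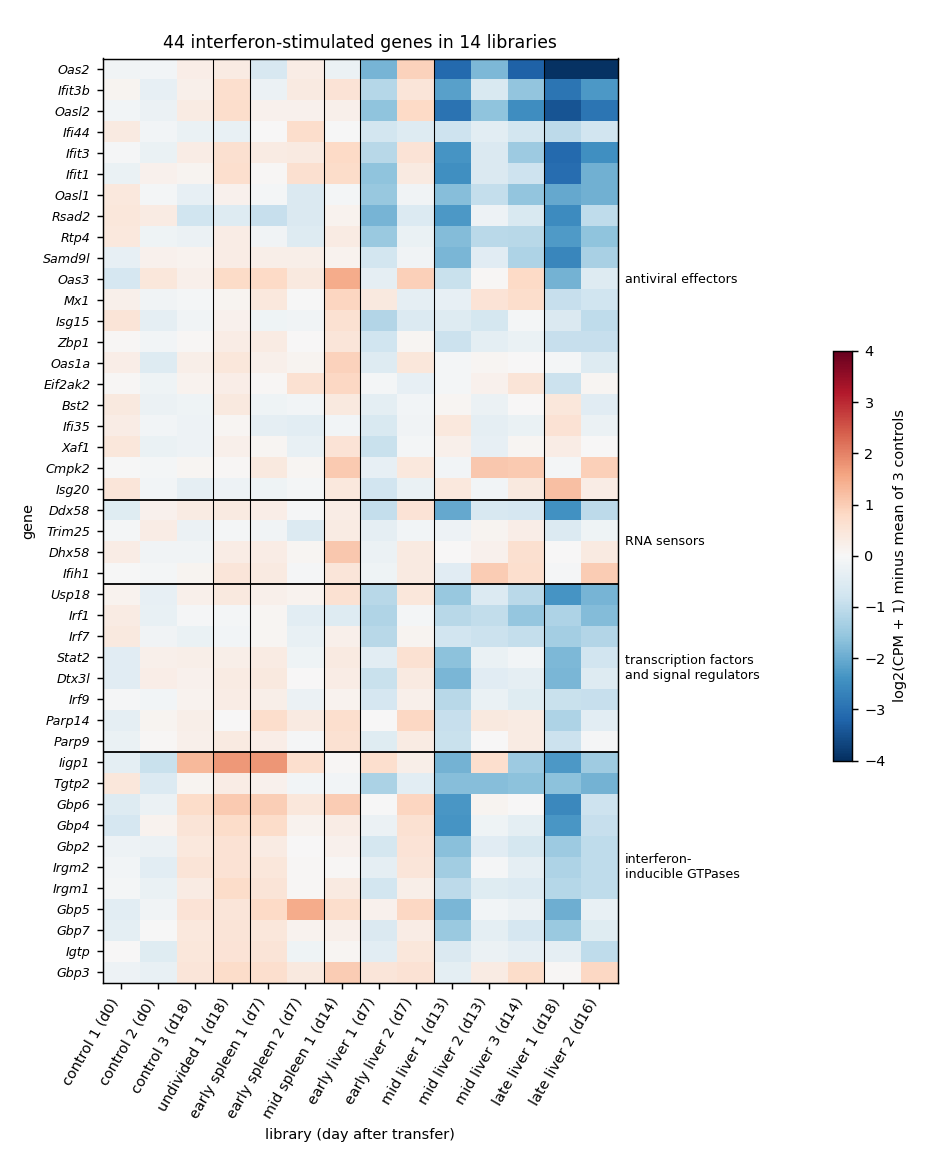
Each row is 1 of the 44 genes, grouped by role, and each column is 1 of the 14 libraries with its day. Colour gives log2(CPM + 1) minus the mean of the 3 controls, and values beyond 4 in either direction take the end colour. The late liver columns and mid liver 1 are mostly blue, early liver 1 resembles them more than early liver 2 does, and the undivided and mid spleen columns are mostly at or above control.

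The calls depended on single libraries. Without late liver 1 or late liver 2, 0 of the 44 were called in late liver, with medians of -1.11 and -1.07, and 0% of all genes were called lower in either fit. Without control 2 and control 3, 23 and 17 were called (11.4% and 13.7% of all genes lower). Leaving out control 1 gave 0 calls with a median of -0.89 in late liver (0.155% of all genes lower) and -0.51 in mid liver (0%). Control 1 held the most macrophage RNA and was also the only control of the TG series. Without it mid liver 1 and late liver 1 had no control of their series, and these traits cannot be told apart. For mid liver, 0 were called without control 2 (0.00701% of all genes lower), mid liver 1 or mid liver 3 (0%), 10 without mid liver 2 (9.47%) and 4 without control 3 (7.67%). Without either late liver library 0 genes of any kind were called in late liver, the pathway and further genes described later included. Against the day 18 control alone the medians were -1.07 in late and -0.80 in mid liver. In that fit 1 library stands for its group and is assumed to vary like the others. Macrophage markers summed to 14.0 CPM in that control, 13.0 to 47.3 CPM in mid liver and 57.9 and 28.1 CPM in late liver. Its hepatocyte markers summed to 1.07 CPM, against 402.7 and 99.0 CPM in late liver. Within the XC series the medians were -0.98 in late liver, where 1 late library was left, and -0.44 in mid liver. In mid liver 0 of the 44 were called there, as were 0 of all 13307 genes tested. Within the TG series, with 1 library per group and no test, 28 of the 44 were lower by at least 1 log2 unit in late liver and 27 in mid liver, against 25.9% and 22.2% of all genes. The same counts within the XC series were 20 in late liver and 8 in mid liver, against 17.5% and 15.0% of all genes, so that the mid liver count there (18.2%) was near the share of all genes. How far macrophage, dendritic cell, erythroid and hepatocyte RNA contributed to the differences was not tested.

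The antiviral effectors held the 5 genes with the lowest late fold changes. Of the 21, 10 were lower in late liver and 5 in mid liver (17.7% and 13.9% of all tested genes were lower). The median log2 fold changes of the 21 were -1.06 and -0.53. Oas2, an enzyme that makes the oligoadenylates which activate RNase L (chr5:120730333-120749853 in GRCm38), was at 16.3, 17.0 and 21.9 CPM in the 3 controls, 1.25, 4.57 and 1.06 CPM in mid liver and 0.239 and 0.255 CPM in late liver. Both late libraries were close to 0 and held 11 and 9 estimated counts. The log2 fold change of Oas2 was -6.12 (SE 1.18) in late liver (adjusted p = 0.0129, edgeR) and -3.10 (SE 0.83) in mid liver (adjusted p = 0.0309). Oasl2, an oligoadenylate synthetase-like protein, was at 26.1, 23.9 and 35.7 CPM in control, 2.79, 8.48 and 4.20 CPM in mid liver and 1.65 and 2.89 CPM in late liver. None of the 5 liver values reached the lowest control. Its log2 fold changes were -3.63 (SE 0.79) in late liver (adjusted p = 0.0153, edgeR) and -2.59 (SE 0.64) in mid liver (adjusted p = 0.0262).

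Ifit proteins bind viral RNA and block its translation. Ifit3 (chr19:34583531-34588731) was at 45.3, 38.6 and 57.6 CPM in control, 8.25, 30.8 and 16.5 CPM in mid liver and 4.48 and 7.71 CPM in late liver, a late log2 fold change of -2.94 (SE 0.62) (adjusted p = 0.0149, edgeR). Mid liver 2 was the closest of the liver libraries to control, and the groups did not overlap. Its neighbour Ifit3b was at 8.73, 6.25 and 9.37 CPM in control, 0.988, 4.86 and 2.04 CPM in mid liver and 0.196 and 0.822 CPM in late liver (late log2 fold change -4.17 (SE 0.88), adjusted p = 0.0137). Of the 31-base words in Ifit3 transcripts 61.8% also occurred in other genes, mainly Ifit3b, so the division of reads between the pair is uncertain. Ifit1, with 10.4% shared words, was at 31.3, 42.6 and 41.3 CPM in control and 3.74 and 9.32 CPM in late liver (5.89-fold lower in the fit, adjusted p = 0.0193, edgeR). Ifi44, a cytoplasmic interferon-inducible protein, had the lowest level of the 44 per length (median 0.284 TPM, a length-normalized unit, over the 14 libraries) and was at 1.76, 0.995 and 0.811 CPM in control, 0.225, 0.616 and 0.292 CPM in mid liver and 0.0435 and 0.255 CPM in late liver. The late libraries held 2 and 9 estimated counts of Ifi44, and its log2 fold change of -3.12 (SE 0.84) (adjusted p = 0.0231, edgeR) rests on those few.

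Oasl1, Rtp4, Samd9l and Zbp1 completed the effectors lower in late liver, with log2 fold changes from -2.35 to -0.93. Zbp1, a sensor of Z-form nucleic acid that triggers cell death, was at 111, 99.4 and 112 CPM in control, 58.4, 81.8 and 88.4 CPM in mid liver and 55.9 and 56.8 CPM in late liver. It moved less than the genes above (late log2 fold change -0.93 (SE 0.28), adjusted p = 0.0315, edgeR), although each mid and late liver library lay below each control.

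Other effectors had fold changes near 0. Ifi35, a protein that binds the partner Nmi, was at 136, 102 and 96.0 CPM in control, 148, 86.0 and 92.5 CPM in mid liver and 167 and 93.2 CPM in late liver. The 2 TG liver libraries were the highest of all 14 and the XC libraries of mid and late liver lay below every control, and the late log2 fold change was 0.04 (SE 0.20) (adjusted p = 0.878, edgeR). Bst2 (tetherin, which holds budding virus at the cell surface) and Xaf1 likewise had late log2 fold changes of -0.11 and 0.07 (adjusted p = 0.694 and 0.852). Isg15, the ubiquitin-like modifier, was at 31.3, 17.0 and 19.5 CPM in control and 14.3 and 10.3 CPM in late liver, which missed the threshold (adjusted p = 0.0529, edgeR).

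The 5 members with the highest late fold changes were Isg20, Ifih1, Cmpk2, Gbp3 and Dhx58, and none passed the threshold. Isg20, an RNA exonuclease, was at 30.3, 19.9 and 16.7 CPM in control, 29.0, 20.1 and 28.8 CPM in mid liver and 50.8 and 26.6 CPM in late liver (late log2 fold change 0.64 (SE 0.26), adjusted p = 0.0819, edgeR). Late liver 1 was the highest of the 14 libraries, while late liver 2 lay within the control range. Cmpk2, a mitochondrial nucleotide kinase encoded beside Rsad2, was at 21.7, 21.0 and 23.6 CPM in control, 20.4, 47.5 and 47.1 CPM in mid liver and 20.9 and 43.5 CPM in late liver. The XC liver libraries from days 13 to 16 were about level with mid spleen (46.9 CPM) and the TG liver libraries were about level with control, so the fit gave 0.52 (SE 0.32) in late liver (adjusted p = 0.224, edgeR). Rsad2 (viperin), which alters nucleotides to stop viral polymerases, was at 24.6, 22.3 and 9.79 CPM in control and 2.29 and 8.22 CPM in late liver (log2 fold change -2.08 (SE 0.83), adjusted p = 0.0788). Mx1, a dynamin-like GTPase, was at 11.2, 8.67 and 9.14 CPM in control, 7.54, 14.5 and 16.2 CPM in mid liver and 4.66 and 5.16 CPM in late liver, with both late libraries below control and 2 of 3 mid libraries above it (late adjusted p = 0.0727, edgeR).

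**Figure D2:**
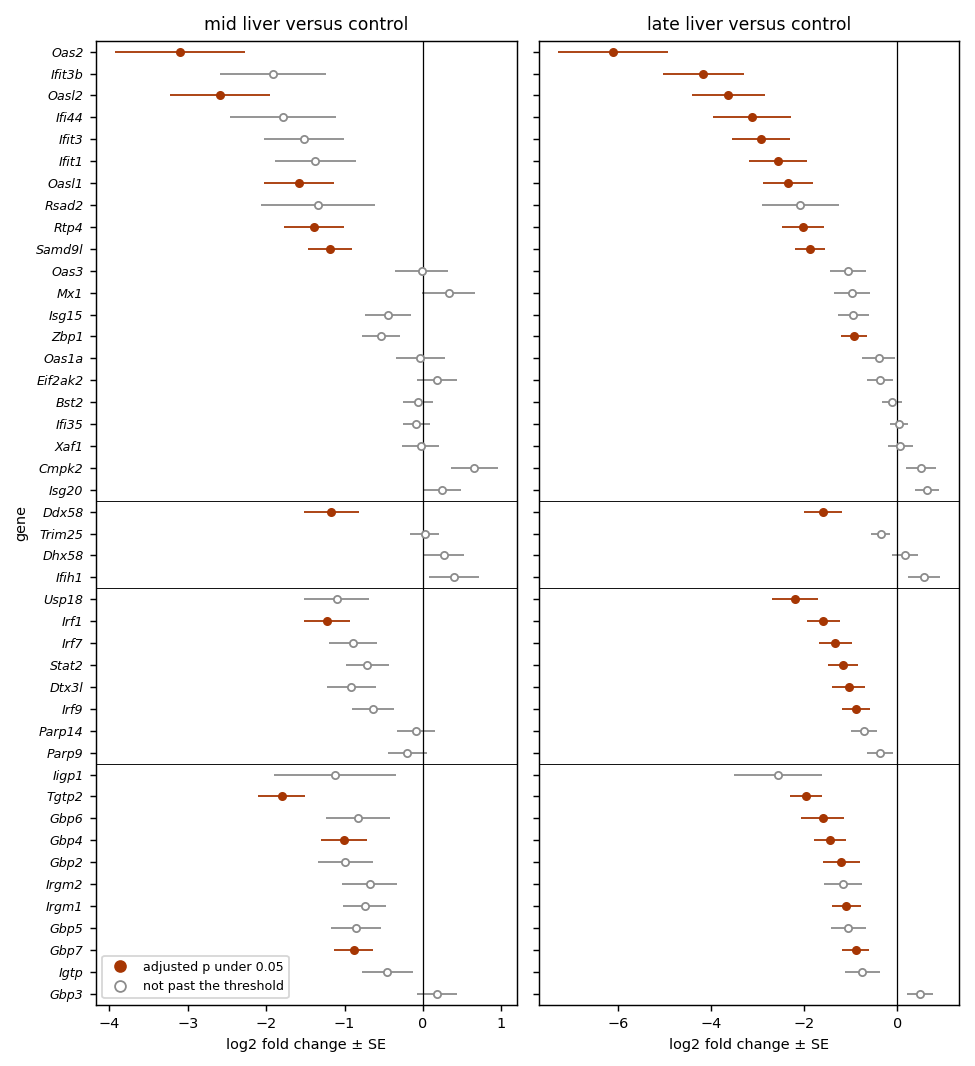
The horizontal axes give the log2 fold change from control in mid and late liver, 1 gene per row, by role. Bars give its SE, derived from the test statistic. Filled points passed an adjusted p of 0.05 by edgeR (10 in mid and 23 in late liver), all to the left of 0, and open points did not.

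The 4 RNA sensors diverged. Ddx58 (RIG-I), which senses viral RNA ends, was at 94.4, 152 and 167 CPM in control, 31.3, 85.3 and 84.0 CPM in mid liver and 24.1 and 64.3 CPM in late liver. It was lower in both comparisons, by 2.25-fold in mid liver (adjusted p = 0.0380) and 3.04-fold in late liver (adjusted p = 0.0206, edgeR), with no overlap between mid or late liver and control libraries. Ifih1 (MDA5), the sensor of long double-stranded RNA, was at 13.2, 12.4 and 14.3 CPM in control, 9.43, 28.0 and 21.9 CPM in mid liver and 12.9 and 27.9 CPM in late liver. Each XC library of mid or late liver was higher than every control and each TG library was lower than or within the control range, and the late log2 fold change was 0.58 (SE 0.35) (adjusted p = 0.204, edgeR). Dhx58 (LGP2), a regulator of the other sensors, was at 29.8, 21.9 and 22.0 CPM in control, 24.5, 27.5 and 38.3 CPM in mid liver and 24.8 and 31.3 CPM in late liver. Trim25, the ubiquitin ligase that acts on RIG-I, was at 81.4, 108 and 74.5 CPM in control, 75.0, 94.3 and 104 CPM in mid liver and 59.7 and 76.1 CPM in late liver. Mid liver 3 and late liver 2 were above every control for Dhx58 and late liver 1 was below every control for Trim25, and neither passed the threshold, with late adjusted p of 0.651 and 0.190 (edgeR).

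All 8 transcription factors and signal regulators had negative log2 fold changes in both comparisons, from -2.20 to -0.38 in late liver. Past the threshold, 6 of 8 were lower there (17.7% of all tested genes were). In mid liver 1 of 8 was lower, near the share of all tested genes (13.9%). Irf1, a transcription factor induced mainly by interferon-γ, had the highest level of the 44 genes per length, with a median of 217 TPM. Irf1 (chr11:53770014-53778374) was at 548, 354 and 421 CPM in control, 201, 216 and 147 CPM in mid liver and 183 and 129 CPM in late liver, and each of these liver values lay below each control value. It was the regulator lower in both, by 2.34-fold in mid liver (adjusted p = 0.0239) and 3.01-fold in late liver (adjusted p = 0.0145, edgeR). Usp18, which removes Isg15 from proteins and shuts off the type I receptor, had the largest late fall of the group, from 68.7, 48.7 and 70.6 CPM in control to 11.3 and 16.3 CPM in late liver (4.59-fold, adjusted p = 0.0160, edgeR).

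Irf7, the amplifier of type I interferon production, and Irf9 and Stat2, partners in the complex that binds the ISRE, had late log2 fold changes of -1.34, -0.89 and -1.17 (adjusted p = 0.0221, 0.0477 and 0.0247, edgeR). Dtx3l, a ubiquitin ligase partner of Parp9, was at 111, 185 and 173 CPM in control, 42.2, 111 and 119 CPM in mid liver and 42.1 and 105 CPM in late liver. Mid liver 2 and 3 lay at the level of control 1, and the late libraries lay below each control (adjusted p = 0.0466, edgeR). Parp9 and Parp14 did not pass the threshold in late liver (adjusted p = 0.299 and 0.0675). Dtx3l and Parp9 overlap at their starts and shared 9.31% of the words of Dtx3l, so reads there cannot be assigned with certainty.

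The interferon-inducible GTPases comprise guanylate-binding proteins (Gbp) and immunity-related GTPases, which coat and break the vacuoles of intracellular pathogens. Of these 11, 6 were lower in late liver and 3 in mid liver (17.7% and 13.9% of all tested genes were lower). The medians of the 11 were -1.17 and -0.85. Tgtp2 (chr11:49057194-49064206) was at 56.6, 27.6 and 44.7 CPM in control, 11.9, 12.1 and 12.7 CPM in mid liver and 12.5 and 10.5 CPM in late liver. These 5 liver values lay between 10.5 and 12.7 CPM, below every control (3.49-fold, adjusted p = 0.0217 in mid liver and 3.88-fold, adjusted p = 0.0102 in late liver, edgeR). However, 90.5% of its transcript words were shared, mainly with Tgtp1, which was at 158, 141 and 307 CPM in control and 9.29 and 14.2 CPM in late liver.

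Gbp4 was at 119, 209.9 and 269 CPM in control, 35.8, 166 and 144 CPM in mid liver and 36.7 and 98.9 CPM in late liver, lower by 2.73-fold in late liver (adjusted p = 0.0164, edgeR). The TG libraries of control, mid and late liver were each the lowest of their group. Gbp7, Gbp6, Irgm1 and Gbp2 were also lower in late liver, by 1.85-fold to 3.04-fold. Of the transcript words of Gbp6, 74.2% were shared, mainly with Gm43302. Igtp (Irgm3) was at 154, 107 and 209 CPM in control, 101, 129 and 118 CPM in mid liver and 118 and 74.7 CPM in late liver, and control 2 overlapped the liver libraries (late adjusted p = 0.142, edgeR). Igtp and Irgm2 overlap on chromosome 11 on the same strand. Gbp3, at 19.4, 17.9 and 31.6 CPM in control, 16.6, 28.0 and 37.9 CPM in mid liver and 23.1 and 40.0 CPM in late liver, was the GTPase with a positive late log2 fold change, 0.50 (SE 0.28) (adjusted p = 0.187). Iigp1 was at 5.83, 3.83 and 21.1 CPM in control and 0.827 and 2.35 CPM in late liver, and did not pass the threshold (adjusted p = 0.0656, edgeR), with the day 18 control well above both day 0 controls.

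**Figure D3:**
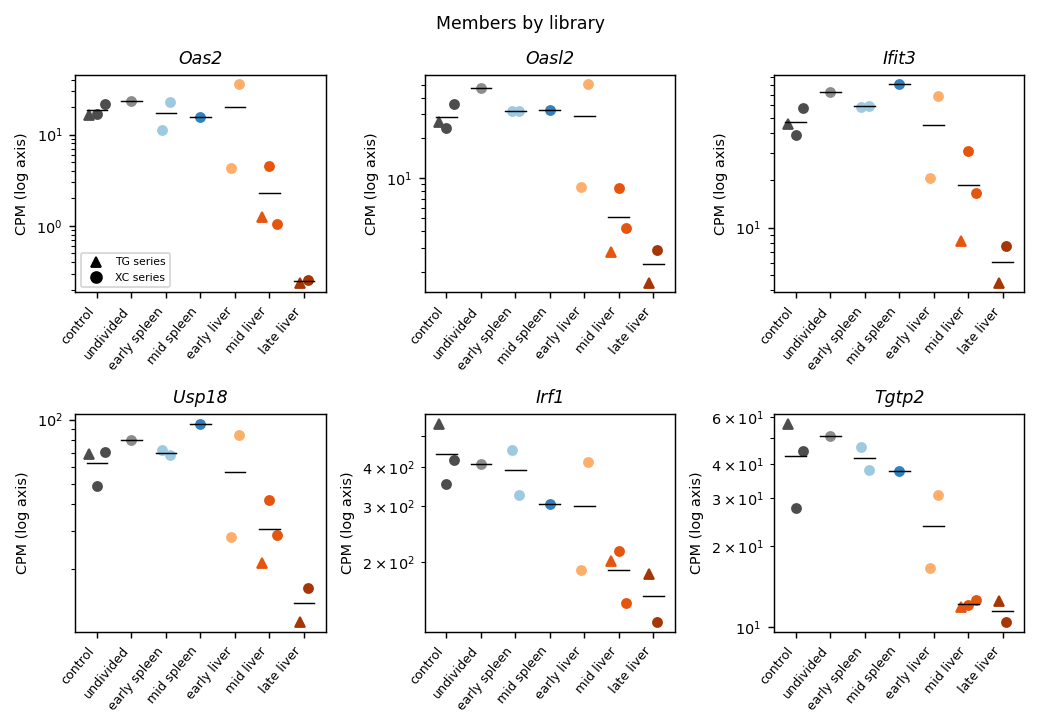
CPM on log axes of 6 members by group, 1 point per library with the group mean as a bar, triangles for the TG and circles for the XC series. Oas2, Oasl2, Ifit3, Usp18, Irf1 and Tgtp2 each lie lower in every late liver library than in every control, and the 2 early liver libraries lie apart.

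The step from mid to late liver had 0 of 44 members past the threshold (0% of all genes tested, edgeR). By unadjusted p 5 of the 44 were lower and 0 higher, against 5.36% of all genes tested in either direction, and by DESeq2 0 were called, against 0.233%. The log2 fold change was negative for 39 of 44, with a median of -0.44 against 0.01 for all genes. The lowest was that of Oas2, -3.02 (SE 1.08) (adjusted p = 0.910, edgeR), and both late libraries of 8 of the 44 (18.2%) lay below all 3 mid libraries, as they did for 6.88% of all genes. With 3 mid and 2 late libraries no member was separated by this test.

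At day 7 the 2 liver libraries differed from each other. Early liver 1 was below every control for 31 of the 44 genes and above every control for 1, whereas early liver 2 was below for 5 and above for 23. Over all genes 32.2% lay below and 30.8% above every control in early liver 1, and 26.1% below and 23.8% above in early liver 2. Oas2 was at 4.35 and 35.5 CPM in early liver 1 and 2, Ifit1 at 11.9 and 49.0 CPM, Usp18 at 28.2 and 84.9 CPM and Irf1 at 188 and 413 CPM. The median of early liver 1 minus early liver 2 over the 44 was -0.87 on the log2 CPM scale, against -0.02 over all genes. Marker sums in early liver 1 and 2 were 10.4 and 6.42 CPM for macrophage, 10.1 and 2.94 CPM for hepatocyte, 2.01 and 46.4 CPM for erythroid, 102.4 and 188.1 CPM for endothelial, 8.97 and 0.814 CPM for NK cell, and 3939 and 6020 CPM for T cell markers. Their part in the difference between the 2 libraries was not tested.

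Given this spread, early liver against control called 0 of 44 (0% of all genes, edgeR). By unadjusted p 1 was lower and 0 higher, with 10.2% of all genes past that level, and by DESeq2 0 were called, with 2.4% of all genes. The median was -0.30. Without early liver 2, the fit called 8 of the 44 lower (18.2%, with 3.6% of all genes lower), and without early liver 1 it called 0 (0.00704% of all genes lower) with a median of 0.07, so the result depends on which library stands for day 7.

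Spleen libraries of leukemia-bearing mice lay mostly within or above the control range. Early spleen 1 and 2 were below every control for 3 and 8 of the 44 genes and above every control for 22 and 9, where 21.9% and 28.5% of all genes lay below and 22.1% and 28.4% above. Early spleen against control called 0 of 44 (0% of all genes, edgeR), with 0 also by unadjusted p (6.29% of all genes) and by DESeq2 (0.0841%), and a median log2 fold change of 0.00. Early liver against early spleen likewise called 0 (0% of all genes, edgeR), with 2 lower and 0 higher by unadjusted p (9.02% of all genes) and 0 by DESeq2 (0.414%). The median there was -0.26, and without early liver 2 5 members (11.4%) were called lower, with 1.36% of all genes. Without early liver 1 it was 0, with 0.00657% of all genes.

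The mid spleen library of day 14, of which there was 1 and hence no test, had the highest level of the 14 libraries for 14 of the 44 genes. The share of all genes highest in that library was not computed. Oas3, the synthetase for long oligoadenylates, was at 120.0 CPM there, 26.2, 59.4 and 49.6 CPM in control and 22.4, 44.0 and 74.5 CPM in mid liver. Dhx58 was at 52.2 CPM in mid spleen against at most 29.8 CPM in control. Against the liver library of the same day, mid spleen was higher for 42 of 44 genes, by at least 1 log2 unit for 14 of them (16.1% of all genes were higher by that much). The median difference was 0.79 on the log2 CPM scale, against 0.00 over all genes. The macrophage markers summed to 59.6 CPM in mid spleen and 19.3 CPM in that liver library, and their part in the difference was not tested.

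Undivided cells, which had been in leukemia-bearing mice for 18 days without dividing, were above every control for 27 of the 44 genes and below every control for 1 (21.5% and 18.6% of all genes). Against the day 18 control they were higher for 39 of 44, by a median of 0.19 on the log2 CPM scale (0.03 over all genes), and by 1 unit or more for 0. For example, Ifit1 was at 61.9 CPM, Oasl2 at 46.8 CPM and Irf1 at 409 CPM. The mean log2 CPM of the 2 late liver libraries was below the undivided library for 41 of 44 genes (50.3% of all genes). The median difference was -1.52, against -0.01 over all genes. Both single libraries were below it for 36 of 44 (39.8% of all genes). The undivided library was from spleen and the XC series, and late liver 1 was of the TG series. Division and tissue cannot be told apart in this difference, which had no series term. The mean log2 CPM of the 44 was 5.82 in undivided cells and 5.58 in the day 18 control, where macrophage markers summed to 14.1 and 14.0 CPM, against 5.44 and 5.31 in the day 0 controls.

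The 18 members described by library in control, mid and late liver were also followed in the other 6 libraries, given here as undivided cells, early spleen 1 and 2, mid spleen, and early liver 1 and 2. For 16 of the 18, early liver 1 was the lowest of these 6. Oas2 was at 23.2, 11.2, 22.9, 15.4, 4.35 and 35.5 CPM. Oasl2 was at 46.8, 31.7, 31.9, 32.4, 8.57 and 50.2 CPM. Ifit3 was at 72.7, 58.1, 59.5, 81.2, 20.8 and 68.6 CPM. Early liver 1 lay below every control for these 3 genes and early liver 2 above every control. Ifit3b was at 13.2, 6.66, 10.5, 12.2, 3.06 and 11.6 CPM. Ifi44 was at 0.762, 1.17, 2.53, 1.11, 0.298 and 0.501 CPM. Zbp1 was at 132, 136, 109, 150.5, 62.0 and 113 CPM. Ifi44 was below every control in both early liver libraries and highest in early spleen 2. Ifi35 was at 116, 86.5, 82.4, 102, 72.6 and 99.7 CPM. Isg20 was at 18.7, 18.9, 20.4, 29.2, 12.4 and 17.9 CPM. Cmpk2 was at 22.9, 29.3, 23.4, 46.9, 17.5 and 29.9 CPM. Mid spleen was the highest of the 6 for Isg20 and Cmpk2, and undivided cells for Ifi35.

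Among the sensors, Ddx58 was at 174, 160.4, 129.6, 164, 67.9 and 194 CPM. Ifih1 was at 19.0, 17.5, 12.8, 19.0, 11.7 and 17.2 CPM. Early liver 1 was below every control for both, while undivided cells and early liver 2 were above every control. Dhx58 was at 30.0, 30.1, 25.7, 52.2, 20.6 and 31.4 CPM. Trim25 was at 83.0, 78.2, 58.9, 108, 68.1 and 80.8 CPM. Mid spleen was the highest of all 14 libraries for Dhx58 and Trim25. Of the regulators, Irf1 was at 409, 454, 325, 305, 188 and 413 CPM. Dtx3l was at 191, 202, 155, 189, 82.4 and 197 CPM. Undivided cells, early spleen 1, mid spleen and early liver 2 were above every control for Dtx3l, and none of the 6 was above the highest control for Irf1. Of the GTPases, Igtp was at 223, 217, 136, 159, 112 and 208 CPM. Gbp3 was at 38.1, 36.1, 29.5, 46.0, 31.3 and 34.1 CPM. Gbp4 was at 312, 316, 209.5, 233, 159 and 286 CPM. Undivided cells and early spleen 1 were above every control for these 3.

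**Figure D4:**
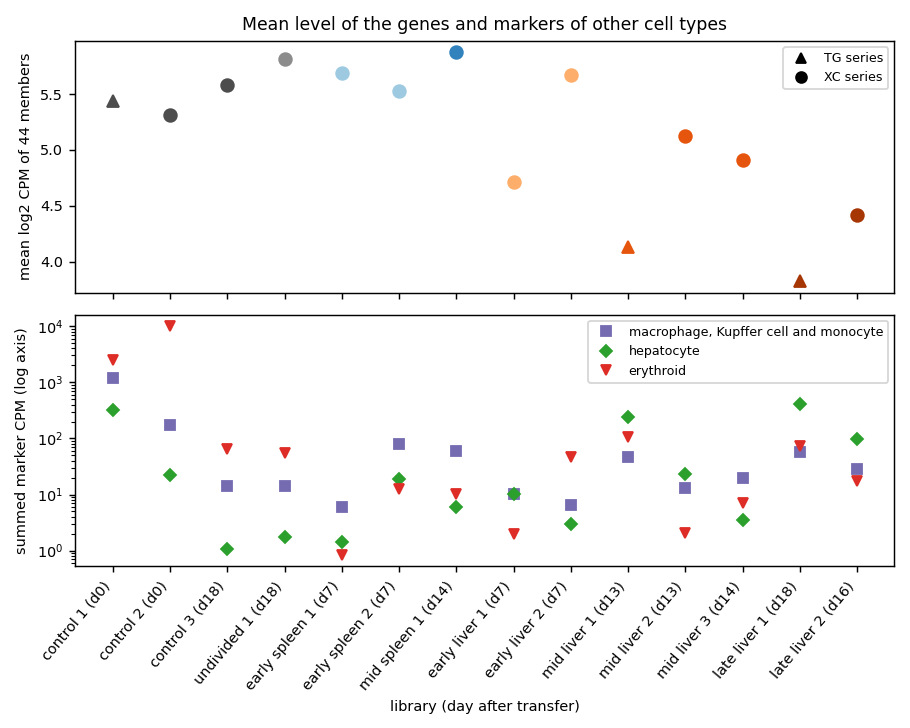
The upper panel gives the mean log2 CPM of the 44 genes in each library, from 3.83 in late liver 1 to 5.88 in mid spleen, and the lower panel the summed CPM of marker lists for other cells on a log axis. Mid and late liver libraries and early liver 1 have the 6 lowest means, while macrophage and erythroid markers are highest in control 1 and control 2.

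The 3 control libraries also differed among themselves. The day 18 control was above both day 0 controls for 10 of the 11 GTPases and below both for 0, and of the 21 effectors it was above for 7 and below for 6, where 29.8% of all genes lay above and 31.6% below. Gbp6 was at 63.0, 75.7 and 152 CPM and Iigp1 at 5.83, 3.83 and 21.1 CPM in control 1, 2 and 3, and Irgm2 at 27.7, 22.3 and 43.6 CPM. The same level of Gbp6 or more was seen in undivided cells (187 CPM) and in early liver 2, early spleen 1 and mid spleen. Most transcript words of Gbp6 were shared with other genes, so its reads cannot be assigned with certainty. With 1 library at day 18 there was no test, and the GTPases were not tested against the effectors. The day 0 controls also held more macrophage RNA (1205 and 175.3 against 14.0 CPM) and erythroid RNA (2498 and 10078 against 63.6 CPM). Dendritic cell markers were higher there too (73.9 and 59.7 against 22.9 CPM), and the part of these was not tested.

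Upstream in the pathway, Ifng, the ligand gene of interferon-γ, was higher and Ifngr2, a chain of its receptor, was lower. Of 56 further pathway genes with matched transcripts, 38 passed the count filter, and 4 were higher and 4 lower in mid liver, and 6 higher and 5 lower in late liver. These shares (10.5% each way in mid liver, 15.8% and 13.2% in late liver) were at or below those of all tested genes (17.3% and 13.9%, 19.8% and 17.7%). Of the 17 ligand genes only Ifng and Ifnz passed the filter. Ifng was at 3.06, 1.21 and 0.649 CPM in control, 202, 81.3 and 128 CPM in mid liver and 168 and 93.8 CPM in late liver (log2 fold change 6.22 (SE 1.36), adjusted p = 0.0163, edgeR). At day 7 it was at 105 and 1.57 CPM in early liver 1 and 2, and in spleen at 6.32 and 0.577 CPM at day 7 and 20.8 CPM at day 14.

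Ifngr2, the signalling chain of the interferon-γ receptor, was at 81.6, 86.9 and 63.1 CPM in control, 7.39, 13.8 and 3.80 CPM in mid liver and 7.09 and 8.16 CPM in late liver. It was lower by 9.42-fold in mid liver (adjusted p = 0.0231) and 10.2-fold in late liver (adjusted p = 0.0233, edgeR). Early liver 1 resembled the later libraries and early liver 2 resembled control, at 12.2 and 72.3 CPM, and mid spleen was at 25.7 CPM. The ligand-binding chain Ifngr1 and the type I chains Ifnar1 and Ifnar2 did not pass the threshold, with late log2 fold changes of -0.33, -0.32 and -0.24 (adjusted p = 0.472, 0.334 and 0.316, edgeR).

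Among the kinases and STATs, Jak1, shared by both receptors, was lower in late liver, at 902, 1410 and 1499 CPM in control and 401 and 739.8 CPM in late liver (log2 fold change -1.07 (SE 0.28), adjusted p = 0.0213, edgeR). Jak2, Tyk2 and Stat3 had late log2 fold changes of -0.16, 0.25 and 0.40 (adjusted p = 0.633, 0.296 and 0.189).

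Of the other regulatory factors, Irf4, which T cell receptor signals induce, was 2.53, 1.46 and 4.73 CPM in control and 131 and 107 CPM in late liver (adjusted p = 0.0164, edgeR). Among negative regulators Cish and Ptpn11 were higher and Pias1 lower in both comparisons, and Ptpn1 was higher in late liver. Cish, a feedback inhibitor induced by cytokine and receptor signals, was at 11.6, 8.51 and 8.69 CPM in control and 135 and 56.4 CPM in late liver (8.55-fold higher, adjusted p = 0.0159, edgeR). Socs1, the main feedback inhibitor of Jak kinases in the interferon pathway, was at 63.0, 50.9 and 65.2 CPM in control and 56.7 and 54.0 CPM in late liver (adjusted p = 0.652, edgeR), and the groups overlapped. Socs3 was at 177, 192 and 134 CPM in control and 7.83 and 77.6 CPM in late liver, lower in each liver library of mid and late time points but with an adjusted p of 0.0766 (edgeR). Ikbke, a kinase that activates Irf3 and Irf7, was lower in both comparisons (late log2 fold change -1.77 (SE 0.40), adjusted p = 0.0151, edgeR). Mavs, the mitochondrial adaptor of the RNA sensors, was higher in late liver, at 32.2, 27.0 and 31.6 CPM in control and 53.7 and 42.5 CPM in late liver (adjusted p = 0.0278, edgeR). Samhd1, which degrades deoxynucleotides, was lower, at 295, 300.1 and 269 CPM in control and 142 and 181 CPM in late liver (adjusted p = 0.0408, edgeR).

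**Figure D5:**
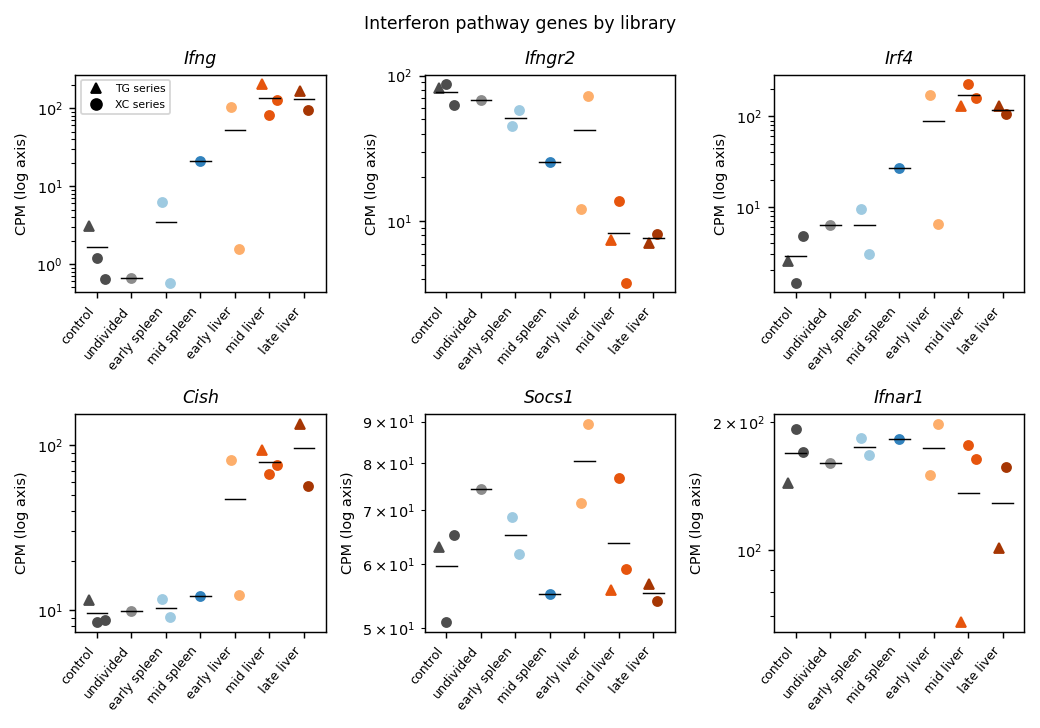
CPM on log axes of 6 pathway genes by group, 1 point per library, bars for group means, triangles for the TG and circles for the XC series. Ifng, Irf4 and Cish are higher and Ifngr2 is lower in early liver 1 and all mid and late liver libraries than in control, while Socs1 and Ifnar1 overlap between liver and control.

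A second list held 56 interferon-stimulated genes outside the 44. In late liver 22 were lower and 6 higher (17.7% and 19.8% of all tested genes), and in mid liver 12 were lower and 4 higher (13.9% and 17.3%), with medians of -0.71 and -0.46. Tgtp1, Slfn8, Ifi208 and Ddx60 were among the lower genes, with late log2 fold changes of -4.02, -2.84, -3.06 and -2.51 (adjusted p = 0.0144, 0.0120, 0.0114 and 0.0203, edgeR). The higher genes in late liver were Ifi27l2a, Tnfsf10, Phf11b, Pml, Ifi27 and Ly6e, with log2 fold changes from 0.56 to 1.48. Ifi27l2a was at 329, 169.6 and 115 CPM in control and 629 and 531 CPM in late liver (adjusted p = 0.0145, edgeR). Tnfsf10, which encodes the death ligand TRAIL, was at 9.94, 14.7 and 21.5 CPM in control and 25.9 and 35.2 CPM in late liver (adjusted p = 0.0224, edgeR). Pml, the organizer of nuclear bodies, was at 74.4, 111 and 122 CPM in control and 128 and 239 CPM in late liver (adjusted p = 0.0134, edgeR).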

How the data were processed

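TCR_Tg101_ from control and leukemia-bearing mice were sequenced on low-input libraries, and the authors quantified transcripts with kallisto. The submitters' processing notes also name bcl2fastq and the builds GRCm38 and mm10. For each transcript the authors deposited an estimated count, which need not be whole, and a TPM that adjusts for length and depth. Transcripts were matched to GENCODE vM21, which may differ from the authors' annotation. The match took in 116710 of 118783 transcripts and, by run, 99.0% to 99.29% of the counts. Estimated counts were summed per gene, rounded, and summed over the runs of a library (25 runs, 14 libraries). Titles that matched apart from a suffix were taken as runs of 1 library, which the labels do not say in words. Mean chi-square per gene was 1.87 to 24.9 between runs of 1 library and 63.1 to 495.4 between libraries of 1 group and day. The library counts were sums over runs, and this measure grows with depth, so the ranges are not on the same scale. Some library pairs also crossed the TG and XC series. The measure therefore cannot settle which titles were runs of 1 library, and libraries were kept apart by title. The oligo-dT library was not used here. Kallisto divides reads among similar transcripts, an error the tests do not include.

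The main test was the robust, two-sided quasi-likelihood test of edgeR 4.0.16 (R 4.3.3), with TMM normalization and with group and series as terms. A gene entered if 6 or more libraries of the fit held 10 counts or more. The fit held 11 libraries (14616 genes), or 14 (15465 genes) for comparisons with early spleen, and the spread was estimated over all groups. Benjamini-Hochberg adjustment ran over all tested genes, and a call needed an adjusted p under 0.05. The SE given was the absolute log2 fold change divided by the square root of the test's F statistic. DESeq2 1.42.0, the study's own tool, gave an alternative test, and other alternatives changed normalization, filter, model, controls, runs, counts and libraries. TPM served for levels between genes and 1 alternative. CPM were TMM-scaled, with a prior count of 2 on the log2 scale. Tests were tried on simulated data. Python 3.11.15, pandas 2.3.3 and matplotlib 3.10.9 made tables and plots.

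The 44 genes, all gene lists and the tests were chosen with earlier results of these data known. Values in every library are given for the 5 members with the lowest and the 5 with the highest log2 fold change in late liver versus control, the 2 with the highest mean log2 CPM in each role, and any member called in the early or late versus mid comparisons. The pathway genes Ifng, Stat3, Jak1, Jak2, Tyk2, Ifnar1, Ifnar2, Ifngr1, Ifngr2, Socs1 and Socs3 are given whatever their values, and others where called. Some pathway genes are not reported here. Rsad2, Isg15, Mx1, Bst2, Xaf1, Oas3, Ifit1, Usp18, Iigp1, Gbp6, Irgm2 and Rtp4 and the genes named from the second list were singled out after their values were seen.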

Additional observations from a re-analysis of the deposited data

Results flagged for a closer look

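For 7 of the 44 genes every mid liver library lay below every control library while the day 14 spleen library lay above every control, as did 378 (2.44%) of 15465 genes tested. They were flagged because the liver and spleen libraries of leukemia-bearing mice moved in opposite directions from control, and the difference was not tested, since there was 1 mid spleen library. Ifit1 was at 64.3 CPM in that spleen library, Ifit3 at 81.2 CPM and Ifit3b at 12.2 CPM. Zbp1 was at 150.5 CPM, Irf9 at 148.3 CPM, Usp18 at 95.6 CPM and Irgm1 at 142.4 CPM. For Irf9 and Irgm1 the spleen value exceeded the highest control (148.1 and 140.4 CPM) by little.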

How the results depend on the processing

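No paired analysis was possible because the labels give no replicate numbers that pair libraries across groups. In late liver versus control, 23 of the 44 genes were lower. This became 13 without the series term, with 1140 of 14616 genes tested lower, and ranged from 0 to 23 with 1 control library left out. The median was -1.07 against the day 18 control alone and -0.98 with XC libraries only, fits that left 1 library in a group. In mid liver versus control, 10 were lower. This became 18 with DESeq2 (2401 of 14616 genes tested were lower) and 24 with no filter on low counts (2584 of 29525). With the libraries of the 2 groups only it was 22 of 43 tested (2536 of 12276 genes). Without the series term it was 3 (484 of 14616), and with day 0 controls only 4 (1097 of 14616). With XC libraries only it was 0 (0 of 13307). The count ranged from 0 to 10 with 1 library left out. Against the day 18 control alone, which was 1 library, the median was -0.80. The alternatives with the day 18 control alone and with XC libraries only were chosen after seeing the data. With no filter, 1 gene was called lower in early liver versus control (527 of all 29525 genes) and 6 in late versus mid liver (164 of 29525). Both were 0 in the main test. With 1 library left out, calls ranged from 0 to 8 in early liver versus control and from 0 to 5 in early liver versus early spleen, where 0 had been called. In the 6 comparisons no alternative called any of the 44 higher. The cause of these shifts was not tested, although leaving out libraries reduces the samples by construction.

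Genes near 0 changed sign. In mid liver, Gbp3 was at -0.0853 against the day 18 control and between -0.0917 and 0.362 with 1 library left out. Trim25 was at -0.134 with day 0 controls only, -0.0295 with first runs only, -0.130 with counts scaled from TPM and between -0.144 and 0.133 with 1 library left out. In late liver, Ifi35 was at -0.0189 with the libraries of the 2 groups only, -0.107 with counts scaled from TPM, -0.103 with XC libraries only and between -0.0858 and 0.206 with 1 library left out, and Trim25 was at 0.0205 against the day 18 control. The mean log2 CPM of the 44 minus control was -0.72 in mid and -1.32 in late liver, and -0.93 and -1.66 without the TMM factor. These moves were smaller than the SD between mid or late liver libraries, although single libraries moved by more (late liver 1 from 3.83 to 3.37).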
